A study of Mus musculus with 24 samples.

Results

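The dorsal root, which carries the afferent (sensory) fibres into the spinal cord, was compared at 3 weeks of age (3W) with 1 week (1W). The afferent nerve fibres (AN) of the lumbar segments L4 to L6 came from C57BL/6 mice, with no treatment or altered allele in either group, and the members were the 3 AN arrays labelled 3W and the 3 labelled 1W, 6 of the 24 arrays of the series. The other arrays held AN at birth (P0) and at 5 weeks (5W), and the efferent nerve fibres (EN) of the ventral root at the same 4 ages, 3 arrays in each group. Per the study, 9 animals were used at each age, of both sexes, and the fibres were collected into 8 tubes matching the 8 groups. An array is therefore a pool of roots and not a single animal. The study's methods speak of 3 independent experiments per group, but the labels tie no array to named animals. Whether the 3 arrays of a group came from separate pools or from portions of 1 pool is not stated. The p-values therefore measure the spread between arrays, which may not be a spread between animals. No cell type was isolated, and the labels give the tissue as spinal cord segments with AN fibres as the subtype.

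A dorsal root is a bundle of sensory axons wrapped by Schwann cells, which myelinate the larger axons and hold the small ones in Remak bundles. Fibroblasts, endothelial cells and macrophages lie between the fibres, the neuronal cell bodies sit in the adjoining dorsal root ganglion, and at the spinal end the glia change from Schwann cells to oligodendrocytes and astrocytes. In the first postnatal weeks, Schwann cells leave the cell cycle and build compact myelin, while the endoneurial matrix and the vessel barrier mature.

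The marker genes of the myelinating Schwann cell fitted the label, with a mean log2 value (quantile normalized by the study) over 8 markers between 16.31 and 16.56 at 1W and between 16.52 and 16.75 at 3W. Markers of the endoneurial fibroblast lay between 14.91 and 15.29 on all 6 arrays. The mean of 14 measured sensory neuron markers (Tlx3 and Drgx were not among the tested probes) read 11.40, 11.66 and 11.56 at 1W, and 9.12, 8.78 and 12.60 at 3W. At 3W, replicate 3 therefore lay above every 1W array and replicates 1 and 2 below them, whereas the EN arrays of both ages lay between 7.42 and 8.76. The difference of the means was -1.38 (two-sided exact permutation test, p = 0.4, with 0.1 the smallest possible), and it was -2.59 without replicate 3. Skeletal muscle markers read 7.94, 9.78 and 9.03 at 1W, and 13.29, 10.71 and 13.83 at 3W, so all 3W arrays were higher and replicates 1 and 3 the most. Oligodendrocyte markers (7.59 to 8.06 at 1W, 8.04 to 8.26 at 3W) and astrocyte markers (9.96 to 10.27, then 10.35 to 10.39) were measured at both ages. Endothelial markers stood at 11.20 ± 0.11 at 1W and 10.84 ± 0.24 at 3W (SD, n = 3), and those of non-myelinating Schwann cells, meninges and red cells overlapped between the ages. In bulk RNA of this kind, fewer cells of a type and less RNA per cell cannot be told apart.

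**Figure D1:**
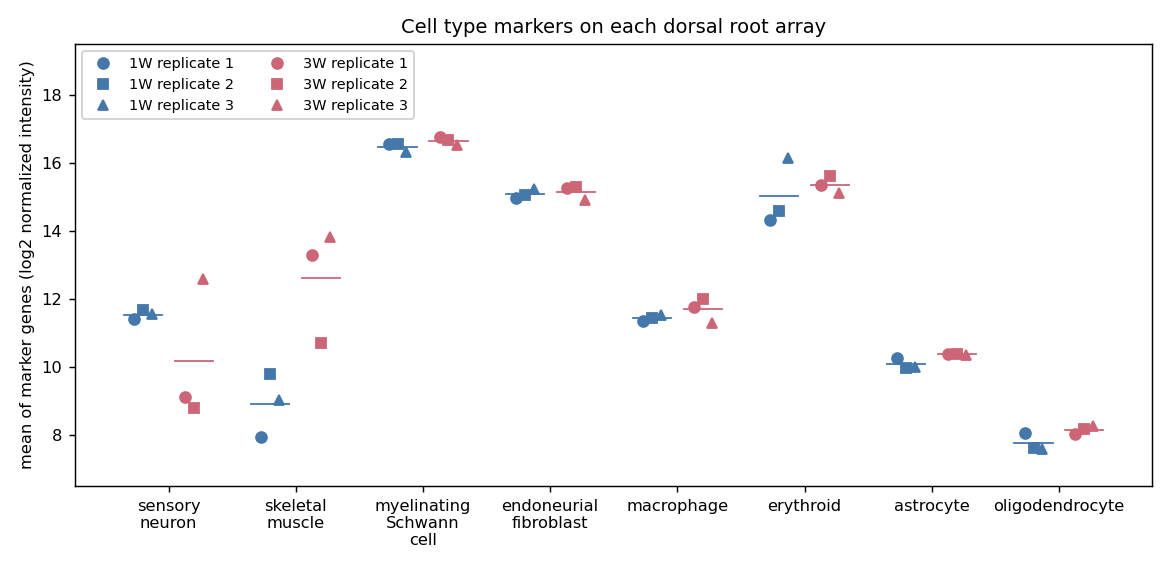
Mean log2 value of the marker genes of 8 cell types (y axis) on each dorsal root array, 1W in blue and 3W in red, with a line at the mean of each age. The neuronal markers of 3W replicate 3 (12.60) sit apart from those of replicates 1 and 2 (9.12 and 8.78), and muscle markers are higher on the 3W arrays.

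Over the 34606 tested probes, 1W arrays correlated at 0.985 to 0.991 with each other and 3W replicates 1 and 2 at 0.992, whereas 3W replicate 3 correlated with them at 0.961 and 0.958 (Pearson's r, across probes). Replicate 3 read more than 2-fold above the mean of the other 3W arrays at 2655 probes and more than 2-fold below it at 554. Counts over all genes are therefore given with and without it, and those of a gene list where leaving it out ended its calls or moved the number of rises or falls by over 1.5 times. The median spot signal was 105.88 to 146.99 at 1W and 61.12 to 73.54 at 3W, and 61.46% to 71.74% of the spots were well above background. All 3W arrays lay on 1 slide, together with 5W replicate 3, and the 1W arrays lay on 3 other slides, of which 2 also held 5W replicate 1 or 2. Slide and age cannot be told apart between these groups, and the 5W arrays of both slide sets are given below where they bear on a gene.

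Of 34606 probes, 4020 (11.6%) changed more than 2-fold with an adjusted p below 0.05 between 1W and 3W in the dorsal root (limma with Benjamini-Hochberg adjustment over all probes, 12 AN arrays). Up-regulated probes numbered 1984 (5.73%) and down-regulated probes 2036 (5.88%). Taking for each gene its brightest tested probe, 2799 of 22845 genes (12.3%) changed, 1296 up-regulated (5.67%) and 1503 down-regulated (6.58%), and the median log2 change over all genes was -0.024. Below, rose, fell, up-regulated and down-regulated refer to genes that met both criteria, and log2 changes are 3W minus 1W. Every list count is to be read beside these shares, also where none is printed. Counts without 3W replicate 3 are to be read beside the shares of the next paragraph. The lists were chosen with earlier results of these data known, so a list count beside a share is a description and not a test. The groups did not overlap, all 3W values lying on the same side of all 1W values, for 10900 genes (47.7%).

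Without 3W replicate 3, 3456 genes (15.1%) changed, of which 1468 rose (6.43%) and 1988 fell (8.7%). Both settings shared 1182 rises and 1254 falls, 114 rises and 249 falls were lost without the replicate, and 286 rises and 734 falls were gained. When slide was entered as a block, with the 5W arrays as the link between slides, 435 genes (1.9%) passed, 1% of all genes as rises and 0.902% as falls. With slide as a random effect, 2115 genes (9.26%) passed.

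The 5W arrays give a second reading of each change on slides that did and did not hold 3W arrays. Among the 1597 changed genes with a gene symbol, all 3 AN arrays at 5W lay on the 3W side of the midpoint between the 1W and 3W means for 1121 (70.2%). For 202 genes (12.6%), only 5W replicate 3, the array on the 3W slide, lay on that side, among them 38 of 816 rises (4.66%) and 164 of 781 falls (21%). For 51 genes (3.19%) no 5W array did. This reading was chosen after the values were seen and carries no test.

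Among the 1377 called genes with a gene symbol whose age groups did not overlap and that were also called without 3W replicate 3, the 10 largest rises were in Plin4, Klk6, Zbtb16, Lao1, Etnppl, Degs2, Pla2g5, Mybpc2, Dpep1 and Olfr1097, with log2 changes from 6.66 down to 4.32. Plin4, which coats lipid droplets, read 5.51, 6.17 and 6.61 at 1W, and 12.64, 12.75 and 12.88 at 3W. Its log2 change of 6.66 ± 0.70 (SE; 101-fold, adjusted p = 0.000286) was also the largest over all 22845 genes, and it read 13.35, 14.54 and 14.47 at 5W. The probe lies on chr17:56240055-56240114 (mm9, as the array file states). Zbtb16, a zinc finger transcription factor induced by glucocorticoids, rose 35.4-fold, from 6.42, 6.79 and 6.98 to 12.11, 11.98 and 11.53 (adjusted p = 5.17e-05). Neither gene's age groups came near each other.

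Klk6, a serine protease of oligodendrocytes, was not well above background on any 1W array and read 8.37, 7.68 and 8.26 at 3W, at least 12.3-fold higher (adjusted p = 1.4e-05). Pla2g5, a secreted phospholipase, was likewise not above background at 1W and read 8.95, 7.97 and 8.81 at 3W, at least 17.2-fold higher (adjusted p = 2.01e-05). Lao1 (L-amino acid oxidase, log2 change 5.07), Etnppl (which breaks down phosphoethanolamine, 5.06), Degs2 (a sphingolipid desaturase and hydroxylase, 5.02) and Dpep1 (a dipeptidase, 4.59) were measured above background on 1 or 2 of the 1W arrays. Etnppl had other probes at 2.97 and 1.52, and a second Degs2 probe at -0.80, so the size for Etnppl and the direction for Degs2 differ between probes. Mybpc2, a myosin-binding protein of fast skeletal muscle, read 4.51, 6.19 and 5.22 at 1W, 10.93, 8.45 and 10.65 at 3W, and 11.07, 6.95 and 6.38 at 5W. Replicate 2 was the lowest 3W array for it, as for the muscle markers above, whose part in this change was not tested. The olfactory receptor probe Olfr1097 rose at least 5.05-fold (adjusted p = 0.0109) but read 2.84, 2.49 and 7.23 at 5W, high on the 3W slide alone, with a log2 change of -0.18 with slide as a block. A second Olfr1097 probe failed the background filter and was not tested. Its means went the other way, 4.38 at 1W and 3.72 at 3W.

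Among the same 1377 genes, the 10 largest falls were in Prnd, Abca12, Fam162b, Ntf3, Fkbp11, Try4, Krt8, Prss56, Try5 and Hist1h2bq, with log2 changes from -4.97 to -3.35. Prnd, which encodes the prion-related protein doppel, read 10.44, 10.48 and 11.02 at 1W and 5.90, 6.03 and 5.08 at 3W, a 31.4-fold fall (log2 change -4.97 ± 0.26, SE; adjusted p = 1.4e-05). Ntf3, encoding neurotrophin-3, a survival factor for proprioceptive neurons, read 8.13, 8.73 and 7.88 at 1W and 3.00, 2.72 and 7.14 at 3W. Its log2 change was -3.96 (adjusted p = 0.0148) with 3W replicate 3, the array with the high neuronal markers and the single 3W array on which Ntf3 was above background. Without that array it was not above background at 3W, at least 12.5-fold lower (adjusted p = 0.000265). Prss56, a serine protease known from the boundary cap cells at nerve exit points, read 6.99, 6.26 and 7.40 at 1W and was not above background at 3W, at least 4.49-fold lower (adjusted p = 0.000368).

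Abca12, a lipid transporter, fell at least 7.68-fold, Fam162b at least 4.11-fold, the keratin gene Krt8 at least 3.16-fold and Fkbp11, a prolyl isomerase of the secretory pathway, at least 3.06-fold, each of them not above background at 3W. Other Abca12 probes were not tested, with means of 2.56 to 2.66 at 1W and 2.51 to 2.60 at 3W. Fkbp11 read 3.91, 5.22 and 2.48 at 5W, lowest on the 3W slide, and had a log2 change of -1.65 with slide as a block. Try4 and Try5, trypsin genes of a multigene family whose probes may share transcripts, had log2 changes of -3.72 and -3.57. The histone probe Hist1h2bq (now H2bc23, also of a family with near-identical copies) had a log2 change of -3.35, but its 5W arrays read 8.07, 7.68 and 4.90, low on the 3W slide alone.

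**Figure D2:**
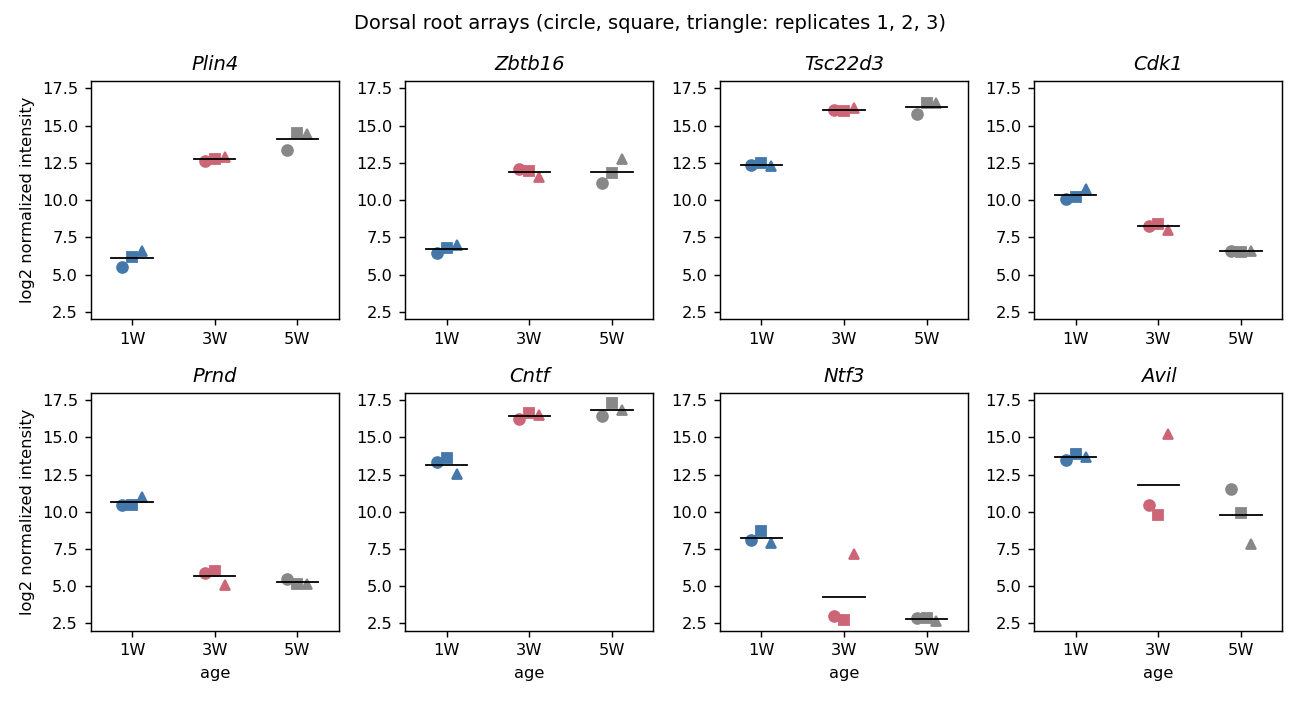
Log2 value of 8 genes (y axis) on each dorsal root array at 1W, 3W and 5W, with 1 point per array. Plin4, Zbtb16, Tsc22d3 and Cntf are high and Cdk1 and Prnd low on all 3W and 5W arrays, whereas Ntf3 and Avil of 3W replicate 3 stand apart from the other 3W arrays.

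Genes that drive mitosis fell together. All 29 measured members of a mitosis list fell (share of all genes that fell, 6.58%), with a median log2 change of -1.94 and a range from -2.37 to -1.26. In all 29 the 2 ages did not overlap (share of all genes, 47.7%). Cdk1, the kinase that starts mitosis, read 10.05, 10.18 and 10.73 at 1W, and 8.29, 8.42 and 8.02 at 3W, a 4.22-fold fall (log2 change -2.08 ± 0.20, SE; adjusted p = 0.000171). Its cyclin partner Ccnb1 (log2 change -2.33), the chromosomal passenger kinase Aurkb (-2.37), the spindle motor Kif11 (-2.06) and Top2a, the topoisomerase that untangles sister chromatids (-1.99), fell by similar amounts. Mki67, the gene for the proliferation antigen Ki-67, read 13.38, 13.44 and 14.08 at 1W and 11.89, 11.72 and 11.36 at 3W. Replicate 3 of 3W was the lowest of the 3W arrays for both Cdk1 and Mki67.

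The mitotic genes also fell without 3W replicate 3 (29 of 29, median -1.75) and were on the 3W side of the midpoint on all 5W arrays in 29 of 29. Cdk1 stood at a mean of 11.39 at P0 and read 6.6, 6.5 and 6.6 at 5W. With slide as a block, the median was -1.92 and 9 of the 29 passed.

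DNA replication genes were lower too, though by less. Of 28 measured members 15 fell and none rose (share of all genes that fell, 6.58%), with a median of -1.03. All 28 were lower at 3W, the other 13 without meeting both criteria. Rrm2, the ribonucleotide reductase subunit that supplies deoxynucleotides in S phase, had a log2 change of -2.14 (12.32, 12.39 and 12.61 at 1W, 10.51, 10.44 and 9.96 at 3W). Uhrf1, which brings the maintenance methyltransferase to replicated DNA, had -1.94, the thymidine kinase Tk1 -1.84 and Mcm5, a subunit of the replicative helicase, -1.70. Without replicate 3, 11 of the 28 fell, and 3 passed with slide as a block.

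The promoters of the mitotic and of the replication genes are shown because all mitosis genes fell, all replication genes were lower, and their promoters are known for different elements. In RefSeq promoter windows of GRCm38.p6 (250 bases before to 50 after the start), TTTGAA, the cell cycle homology region, was searched on both strands and found in 19 of 25 windows of the mitosis list (76%), against 17.9% of all 32851 windows and 10.7% of the windows of the replication list. CCAAT was present in 84% of the mitosis windows and 57.1% of the replication windows, against 37.4% of all. The E2F-like TTTNGCGC was present in 4% of the mitosis windows and 28.6% of the replication windows, against 1.38% of all. Both TTTGAA and CCAAT were present in 18 of the 25 mitosis windows (72%), against 6.95% of all. A match is a description of the letters and not a bound site. The windows cover 23 of the 29 genes of each list. Those printed below were picked from called genes because they hold the motifs, so they do not represent their lists. The motifs required were TTTGAA and CCAAT for mitosis, and TTTNGCGC for replication.
In Cdk1 (chr10:69352863-69353162, minus strand), Kif11 (chr19:37376132-37376431, plus strand) and Top2a (chr11:99024140-99024439, minus strand), capitals mark these 3 motifs on either strand, and Cdk1 holds the single TTTNGCGC match of the mitosis windows:
Cdk1: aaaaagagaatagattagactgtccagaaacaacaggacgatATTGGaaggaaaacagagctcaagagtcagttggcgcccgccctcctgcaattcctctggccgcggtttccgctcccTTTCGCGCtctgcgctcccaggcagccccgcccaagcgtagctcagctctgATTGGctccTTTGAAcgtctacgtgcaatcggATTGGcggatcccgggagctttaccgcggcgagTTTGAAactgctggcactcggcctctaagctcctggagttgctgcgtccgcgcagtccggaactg
Kif11: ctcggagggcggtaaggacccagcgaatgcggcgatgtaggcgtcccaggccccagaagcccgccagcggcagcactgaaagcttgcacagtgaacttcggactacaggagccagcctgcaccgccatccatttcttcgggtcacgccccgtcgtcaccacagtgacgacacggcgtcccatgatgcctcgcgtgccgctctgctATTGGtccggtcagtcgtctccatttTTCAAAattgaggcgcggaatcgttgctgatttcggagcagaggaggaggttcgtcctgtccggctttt
Top2a: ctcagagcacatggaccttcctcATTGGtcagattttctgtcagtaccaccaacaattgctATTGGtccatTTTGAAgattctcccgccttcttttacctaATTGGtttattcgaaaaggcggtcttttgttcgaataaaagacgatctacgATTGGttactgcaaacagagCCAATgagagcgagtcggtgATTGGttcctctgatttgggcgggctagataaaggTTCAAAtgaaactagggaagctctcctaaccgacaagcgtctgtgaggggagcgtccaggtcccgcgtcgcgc
In Uhrf1 (chr17:56304063-56304362, plus strand) and Mcm5 (chr8:75109259-75109558, plus strand), of the replication list, capitals mark the same 3 motifs, and neither window holds TTTGAA:
Uhrf1: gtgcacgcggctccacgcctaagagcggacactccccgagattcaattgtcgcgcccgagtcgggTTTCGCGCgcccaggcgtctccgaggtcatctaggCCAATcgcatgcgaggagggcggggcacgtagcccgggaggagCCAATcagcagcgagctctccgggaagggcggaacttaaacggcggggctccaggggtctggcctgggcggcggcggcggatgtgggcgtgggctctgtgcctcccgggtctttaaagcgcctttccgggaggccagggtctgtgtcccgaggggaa
Mcm5: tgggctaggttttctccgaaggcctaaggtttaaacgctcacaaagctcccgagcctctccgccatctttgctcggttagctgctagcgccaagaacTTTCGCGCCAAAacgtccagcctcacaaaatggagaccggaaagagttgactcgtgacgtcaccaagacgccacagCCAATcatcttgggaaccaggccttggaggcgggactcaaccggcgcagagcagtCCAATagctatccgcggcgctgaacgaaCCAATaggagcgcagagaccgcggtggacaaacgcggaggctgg

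Inhibitors of the cell cycle did not move one way. Of 10 measured inhibitors, Cdkn1a (p21) rose (13.37, 13.45 and 13.01 to 14.86, 15.02 and 14.29; 2.73-fold, adjusted p = 0.00654), whereas Cdkn1c (p57) and Rbl1 fell. Without replicate 3, Cdkn1b (p27) rose as well (1.04) and Rbl1 no longer passed (-0.97). Cdkn1c, an imprinted gene, varied little within each age, at 15.79, 15.77 and 16.23 at 1W and 13.51, 13.58 and 13.56 at 3W (5.21-fold lower, adjusted p = 4.13e-05). Genes of fetal growth and imprinted growth control fell in 9 of 20 and rose in none (share of all genes that fell, 6.58%). Their median was -1.03. Among them were Hmga2, a chromatin protein of embryonic cells (9.49, 9.23 and 9.84 to 7.14, 7.15 and 6.22; 6.43-fold lower), Igf2bp3, an RNA-binding protein of fetal tissue (log2 change -2.49), Mest (-2.01), the long non-coding RNA H19 (-1.84) and the growth factor Igf2 (-1.53). In the insulin-like growth factor system of 16 genes, Igf2 fell and Irs2 (1.30) and Igfbp6 (1.42) rose. Without replicate 3 the falls numbered 4, with Pappa (-1.78), Pappa2 (-3.39) and Igfbp2 (-1.51) beside Igf2.

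In a list of genes known to respond to glucocorticoids, chosen with earlier results of these data known, nearly all rose. Of 16 measured members 15 rose and none fell (share of all genes that rose, 5.67%), with a median of 1.84, and the exception was the receptor gene Nr3c1 (log2 change 0.33, adjusted p = 0.129). Tsc22d3, which encodes the glucocorticoid-induced leucine zipper GILZ, read 12.37, 12.46 and 12.29 at 1W and 16.05, 15.96 and 16.17 at 3W, a 12.9-fold rise (log2 change 3.69 ± 0.20, SE; adjusted p = 1.4e-05). Pdk4, which shuts pyruvate out of the mitochondrial cycle, rose 17.1-fold (adjusted p = 0.000108), Klf9 6.51-fold, the receptor chaperone Fkbp5 5.85-fold and the metallothionein Mt2 5.5-fold. Hsd11b1, the enzyme that regenerates active glucocorticoid, rose 2.97-fold (7.55, 7.93 and 7.56 to 8.94, 9.64 and 9.17). The 1W and 3W arrays did not overlap for any of the 15 genes that rose (share of all genes without overlap, 47.7%).

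Tsc22d3 stood at a mean of 12.54 at P0 and read 15.77, 16.5 and 16.52 at 5W, and all 15 genes were on the 3W side on every 5W array. Without 3W replicate 3, 14 of the 16 rose. With slide as a block, 4 passed and the median was 1.10. Several members are also regulated by other signals, and Lcn2, Dusp1, Cdkn1a and Per1 stand in other lists here.

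**Figure D3:**
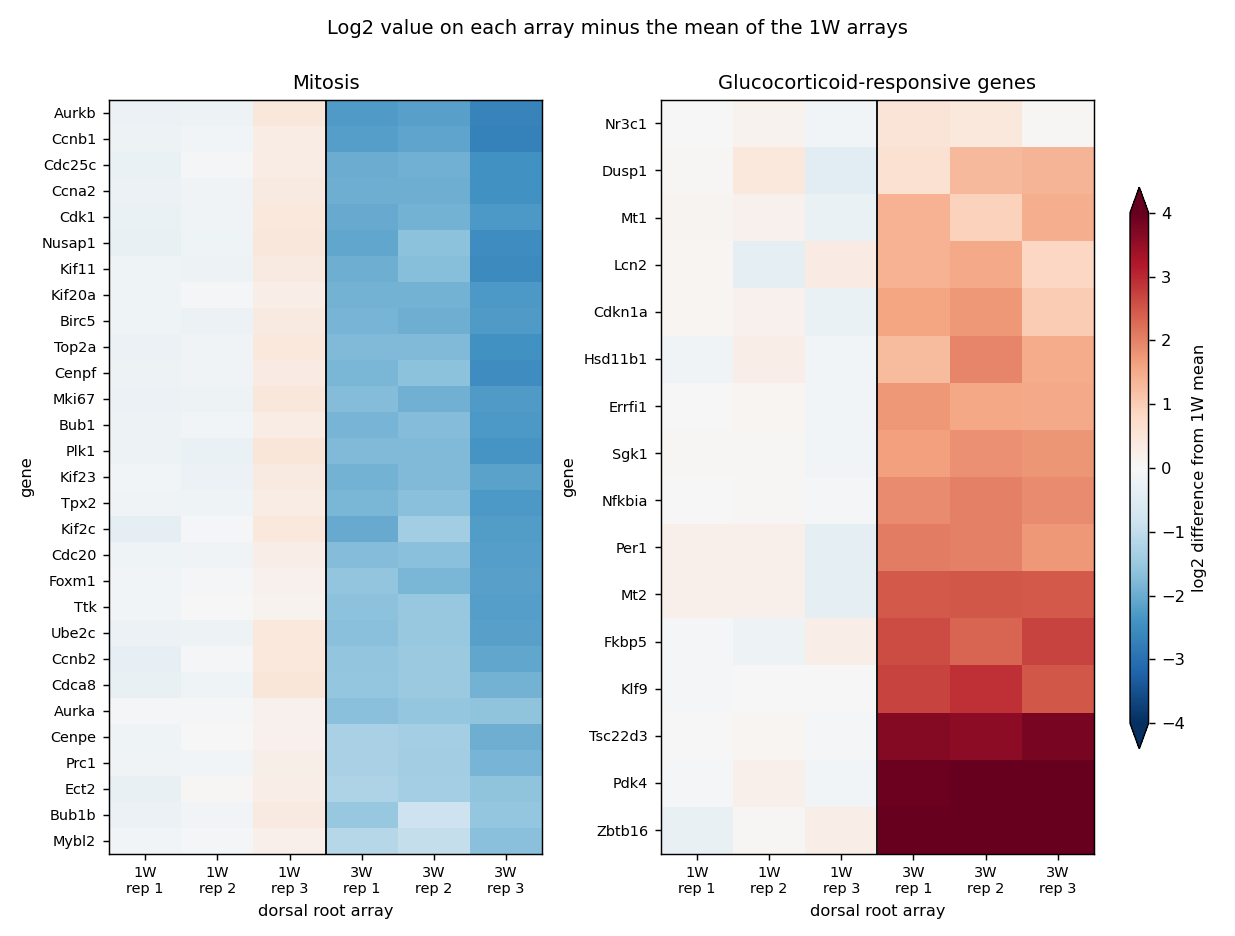
Log2 value minus the mean of the 1W arrays for each mitosis gene and each glucocorticoid-responsive gene (rows). The colour is capped at 4 in either direction, and the columns are the 1W and 3W arrays of the dorsal root. The mitosis genes are below and the glucocorticoid-responsive genes above the 1W mean on the 3W arrays, except for the weak change of Nr3c1.

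Among 17 circadian clock genes, Per2 (log2 change 2.14), Per1 (1.93) and Cry2 (1.09), which encode repressors of the clock, rose and none fell, with a median of 0.58. Of 18 immediate early genes, Fosl2 (1.58), Zfp36, Btg2 and Dusp1 rose and Egr3 (-1.30) fell. Without replicate 3, Fosl2 and Zfp36 rose and Egr3 fell, and Btg2 and Dusp1 no longer passed. Btg2 read 9.57, 8.77 and 10.46 at 5W and had -0.1 with slide as a block. No 3W array lay on the other slides, so a rise from 1W to 3W could not be read there.

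Structural myelin genes were well above background at both ages. Pmp22 stood at 18.36 ± 0.03 and 18.51 ± 0.00, and Mbp at 16.08 ± 0.61 and 16.45 ± 0.14 (SD, n = 3). Of 17 measured members of the myelin protein list 3 rose and none fell, with a median of 0.48. Without regard to the criteria, 11 were higher and 6 lower at 3W. Among the lower were Mag (16.03, 15.94 and 15.88 to 15.48, 15.38 and 15.13) and Prx (17.86, 17.84 and 17.71 to 17.43, 17.09 and 17.32). Drp2, which links dystroglycan to the Schwann cell cytoskeleton beneath the outer membrane, rose (13.61, 13.76 and 13.20 to 15.17, 15.14 and 14.73; 2.81-fold, adjusted p = 0.00492). Ncmap, a small myelin membrane protein, rose 2.24-fold. The third list member that rose, Fgl2, encodes a fibrinogen-like protein and is not a structural myelin gene. It rose 2.47-fold (1.30 on the log2 scale, and 1.03 with adjusted p = 0.0796 without replicate 3).

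Of 11 Schwann cell transcription factors, Pou3f2 fell (log2 change -1.12, and -0.96 without replicate 3), while the myelin regulator Egr2 had 0.64 (adjusted p = 0.0517) and Sox10 0.27. Genes of immature and Remak Schwann cells fell in 4 of 18 and rose in 1. Tnc, a matrix glycoprotein of developing nerve, fell 6.22-fold (8.07, 7.91 and 8.02 to 5.46, 5.76 and 4.86; adjusted p = 0.00479), Id2, an inhibitor of basic helix-loop-helix factors, 3.33-fold, Sox2, a repressor of myelination, 2.39-fold and Pax3 2.21-fold. Scn7a, a sodium channel of non-myelinating Schwann cells, rose 4.35-fold (7.33, 7.43 and 7.54 to 9.96, 9.51 and 9.20; adjusted p = 0.00405). Without 3W replicate 3 the counts were 7 down and 2 up, and Gap43, also a growth cone gene of neurons, was among the genes gained (-3.31).

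Cholesterol synthesis showed small differences. Of 19 sterol biosynthesis genes 3 fell and none rose, with a median of -0.20, among them Nsdhl (-1.07) and Mvk (-1.03). None of the 3 passed without replicate 3. Of 19 genes for sterol regulation and uptake, Nr1h3 (the liver X receptor alpha, 1.75), its target Abcg1 (1.31) and the lysosomal lipase gene Lipa (1.25) rose, and Scarb1 (-1.05) fell. Degs2 was the single member of 22 fatty acid and galactolipid synthesis genes that changed.

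Among the matrix lists, the small proteoglycans held the most rises. Of 11 small leucine-rich proteoglycans, which bind collagen fibrils, 7 rose and none fell (share of all genes that rose, 5.67%). The median was 1.13. Ogn (osteoglycin) read 15.40, 15.63 and 15.07 at 1W and 16.83, 16.83 and 16.52 at 3W (2.57-fold, adjusted p = 0.000671), decorin (Dcn) rose 2.19-fold, Prelp 2.94-fold and Omd 3.31-fold. Leaving out replicate 3 also gave 7. With slide as a block, none of the 7 passed and the median was 0.40.

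None of 15 genes for fibrillar and other interstitial collagens (types VI, VIII, XII, XIV and XV among the latter) met both criteria in limma, although 9 had an unadjusted p below 0.05, and their median was -0.54. Without replicate 3, Col5a3 rose (1.15). Col1a1 had -0.57 (adjusted p = 0.0148) and Col3a1 -0.54 (adjusted p = 0.0215), both under 2-fold. Among 16 collagen processing genes, Lox, the enzyme that cross-links collagen and elastin, rose 13.6-fold (9.39, 9.82 and 10.17 to 13.53, 13.84 and 13.32; adjusted p = 4.13e-05), P4ha1 rose 2.65-fold and P3h1 fell 2.42-fold. In the basal lamina list of 21, Itgb4, the beta-4 integrin of myelinating Schwann cells, rose 2.23-fold and the nidogen Nid2 fell 2.07-fold. Without replicate 3, Itgb4 and the laminin Lama5 (1.13) rose and Nid2 no longer passed (-0.85). Of 20 matrix-degrading enzymes and inhibitors, the membrane metalloprotease Mmp14 fell 3.3-fold (9.97, 9.87 and 9.84 to 8.28, 8.26 and 7.98; adjusted p = 0.000153), and Adamts5 (2.93-fold) and Mmp17 rose.

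Trophic factors and their receptors held changes in both directions. Of 26 measured members 3 rose and 2 fell (shares of all genes, 5.67% and 6.58%). Cntf, the ciliary neurotrophic factor made by myelinating Schwann cells, read 13.34, 13.59 and 12.54 at 1W and 16.23, 16.61 and 16.49 at 3W, a 9.79-fold rise (log2 change 3.29 ± 0.31, SE; adjusted p = 0.000171). Fgf2 rose 9.5-fold (adjusted p = 0.00677), but its 5W arrays read 6.38, 6.19 and 9.24, high on the 3W slide alone, and its log2 change was 0.23 with slide as a block. Gfra1, the receptor subunit for glial cell line-derived neurotrophic factor, rose 2.36-fold, whereas Ntf3 fell as above. Without replicate 3, 4 rose and 7 fell, and the falls gained included Ret, Nrg1 (-2.36), Bdnf and Gfra3, receptors and ligands of sensory neurons.

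Axon guidance genes fell in 8 of 50 and rose in 1 (median -0.25). The ephrin receptor Ephb2 fell 4.0-fold (12.17, 12.16 and 12.49 to 10.95, 9.38 and 10.49; adjusted p = 0.00235), Sema6a 2.94-fold and the netrin receptor Unc5b 2.82-fold, while Sema4d rose 2.17-fold. All 9 were on the 3W side on every 5W array. Of 36 Wnt pathway genes 8 fell and 2 rose (shares of all genes, 6.58% and 5.67%). The secreted regulator Dkk2 fell from 7.27, 7.52 and 8.00 to 4.70, 5.20 and 4.63 (6.73-fold, adjusted p = 8.96e-05, above background on 1 of the 3W arrays). The secreted protein Sfrp2 (-1.93) and the Wnt-inactivating esterase Notum (-1.67) also fell, whereas Sfrp5 rose 4.54-fold (13.71, 13.74 and 13.38 to 15.97, 15.88 and 15.53; adjusted p = 0.000124). Notum had -0.07 and Sfrp2 -0.36 with slide as a block.

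Of 14 Hedgehog pathway genes, 2 fell and none rose. The transcription factor Gli3 fell 2.56-fold (9.54, 9.65 and 9.69 to 8.39, 8.30 and 8.11; adjusted p = 0.000605). Of 30 Hox genes, which mark position along the body axis, Hoxd4 (1.71), Hoxc5 (1.14) and Hoxc6 (1.08) rose and Hoxb7 (-1.07) fell. These 4 of 30 lie close to the share of all genes that changed, 12.3%. Without replicate 3, Hoxc5 no longer passed (adjusted p = 0.0938) and Hoxd1 fell (-2.61).

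Genes of central glia changed in both directions with all arrays, but the falls were lost with slide as a block. Of 18 oligodendrocyte genes, Klk6, Opalin, Hapln2 and Tmem88b, all genes of mature oligodendrocytes or their myelin, rose. The transcription factors Nkx2-2 and Olig2 of the oligodendrocyte lineage fell, and the other 12 genes were not called. Opalin read 4.88, 5.99 and 5.53 at 3W and was not above background at 1W (at least 1.99-fold, adjusted p = 0.00505), as was Hapln2 (5.68, 5.63 and 6.10 at 3W, at least 2.51-fold). Nkx2-2 read 7.03, 6.58 and 6.73 at 1W and was not above background at 3W (at least 3.74-fold lower), and Olig2 had a log2 change of -1.57 (-1.60 with adjusted p = 0.0535 without replicate 3). Of 15 astrocyte genes, Aldh1l1 (1.62), Agt (1.34) and Sox9 (1.24) rose, and the water channel Aqp4 (-1.20) fell, with 0.03 with slide as a block and 5W values of 10.9, 10.9 and 9.8. Aldh1l1 read 13.83 to 14.04 in the ventral root at 3W, above the dorsal root (13.05 to 13.49), although the astrocyte markers as a group were lower there (7.89 to 9.67 over both ages). With slide as a block, 5 oligodendrocyte genes passed as rises and none as a fall (median 1.42, against 0.29 without the block), and 3 astrocyte genes passed as rises and none as a fall (median 1.45, against 0.52). The part of the glial markers in the changes was not tested.

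Complement genes rose in 7 of 18 and fell in none (share of all genes that rose, 5.67%), with a median of 0.88. C4b, a component of the classical pathway, read 10.58, 10.52 and 10.49 at 1W and 12.96, 13.02 and 13.09 at 3W, a 5.62-fold rise (log2 change 2.49 ± 0.14, SE; adjusted p = 1.4e-05). The protease C1ra (3.57-fold), the central component C3 (3.73-fold) and the membrane inhibitor Cd59a (3.87-fold) also rose. All 7 were on the 3W side on every 5W array, 6 rose without replicate 3 and 2 passed with slide as a block.

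Of 23 macrophage genes 4 rose and 1 fell (shares of all genes, 5.67% and 6.58%). The scavenger receptor Cd163, a marker of resident tissue macrophages, read 6.97, 7.45 and 7.86 at 1W and 10.50, 10.84 and 10.54 at 3W (9.19-fold, adjusted p = 0.000394), Retnla rose 10.6-fold, Cd14 and Lyve1 also rose, and Ms4a7 fell 2.36-fold. The mean of 4 general macrophage markers was 11.45 ± 0.09 at 1W and 11.69 ± 0.36 at 3W (SD, n = 3). Among 27 chemokine genes Ccl5 (1.69), Ccl9, Ccl6 and Ccl12 rose and Cxcl10 (-1.96) and Cxcr4 fell. Of 12 neutrophil genes Chil3 (1.95) and Lcn2 rose and Elane (-1.57) fell, of 8 mast cell genes Srgn (1.41) rose, and of 18 MHC genes H2-DMb1 (1.84) rose, with none falling in the last 2 lists. Of 28 interferon-stimulated genes Ifit3 rose (1.47, adjusted p = 0.0491) and none fell, and no gene of the list passed without replicate 3 or with slide as a block, fixed or random. The mean log2 value of that list was 10.66 on 1W replicate 3 against 8.54 and 8.89 on the other 1W arrays.

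Vessel genes moved in both directions. Of 20 endothelial and barrier genes 4 rose and 3 fell (shares of all genes, 5.67% and 6.58%). The transporter Slco1a4 (8.24, 8.43 and 7.48 to 10.57, 10.60 and 10.20; 5.3-fold, adjusted p = 0.000526), the glucose transporter Slc2a1 (3.14-fold), the efflux pump Abcb1a (3.1-fold) and Abcg2, all known from vessels with a barrier, rose. Plvap, a protein of fenestrated and leaky vessels (9.23, 9.44 and 9.66 to 7.26, 7.03 and 8.76; 3.39-fold, adjusted p = 0.011), the tip cell gene Esm1 (3.68-fold) and Apln fell. All 7 were on the 3W side on every 5W array. Meningeal genes rose in 2 of 15, Slc22a2 6.84-fold and Slc13a4 2.26-fold, with a median of -0.04. Without replicate 3, Slc22a2 rose, Igfbp2 fell and Slc13a4 no longer passed (0.71).

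Blood and adipocyte lists gave little. No erythroid gene of 15 met both criteria in limma, and none had an unadjusted p below 0.05 (median 0.15), and of 15 adipocyte genes Plin4 alone did, with a list median of 0.15 (1 rise and 1 fall without replicate 3). Adipocyte markers read 5.29 to 6.19 at 1W and 5.58 to 5.96 at 3W. All 14 skeletal muscle genes had a positive change, with a median of 3.07, but 2 met both criteria. Ckm, the muscle creatine kinase, read 5.38, 6.53 and 6.37 at 1W and 10.46, 8.30 and 11.17 at 3W (14.7-fold, adjusted p = 0.0282), and Actn3 rose 8.86-fold. Without replicate 3, Ckm no longer passed (3.28, adjusted p = 0.0724). Replicate 2 was the lowest 3W array for both.

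The neuronal genes depended on a single array. Of 15 sensory neuron identity genes, Pou4f1 rose and none fell with all arrays (median -1.84), whereas 11 fell without 3W replicate 3 (median -3.03; share of all genes that fell in that setting, 8.7%). Avil, the sensory neuron actin-binding protein advillin, read 13.49, 13.88 and 13.71 at 1W and 10.42, 9.79 and 15.20 at 3W, so its 3W arrays lay on both sides of the 1W arrays (log2 change -1.89, adjusted p = 0.315, and -3.59, adjusted p = 0.0167, without replicate 3). Pou4f1 did not follow this order: its probe read 13.98, 13.43 and 13.67 at 1W and 15.82, 14.92 and 14.68 at 3W, and was as high in the ventral root (13.48 to 15.42), where sensory neuron markers were low. Its direction is therefore that of this probe and not of the list.

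Other neuronal lists also differed between the settings (share of all genes that fell without replicate 3, 8.7%). Pan-neuronal genes had no call among 16 in limma, and 0 had an unadjusted p below 0.05 (median -0.94), against 8 falls without replicate 3 (median -1.93), among them Tubb3 (-2.87) and Stmn2 (-2.97). Of 17 nociceptor and sensory channels none was called with all arrays (2 with an unadjusted p below 0.05), and 12 fell without replicate 3 (median -1.69). Scn10a, the sodium channel Nav1.8 of pain-sensing neurons, read 12.74, 13.15 and 13.07 at 1W and 9.18, 8.95 and 14.03 at 3W. Of 17 neuropeptide genes Grp fell (-1.30), and 6 others but not Grp fell without replicate 3, such as Calca, the precursor of calcitonin gene-related peptide (14.76, 14.92 and 15.05, then 11.32, 10.75 and 16.50).

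Neurofilament and axonal cytoskeleton genes gave no call among 15 (4 with an unadjusted p below 0.05) and 6 falls without the replicate. The light chain Nefl read 16.06, 16.35 and 16.17 at 1W and 13.66, 12.93 and 18.03 at 3W. Proprioceptor and mechanoreceptor genes went from none (1 with an unadjusted p below 0.05) to 6 falls of 14, and the motor neuron and cholinergic list from 1 rise (Chat, 1.76) to 1 rise and 5 falls of 9, some of these genes being shared with sensory neurons. Replicate 3 was the highest 3W array for Avil, Scn10a, Calca and Nefl. At 5W, the neuronal marker mean read 10.18, 9.51 and 7.30, with the array on the 3W slide the lowest. With slide as a block, the medians turned to 1.20 for pan-neuronal genes, 2.10 for neuropeptides and 0.60 for nociceptor channels, so the direction of the neuronal lists depended on which arrays carried the comparison. The part of this neuronal signal in the other changes was not tested, and the mitosis and glucocorticoid-responsive lists kept their counts to within 1 gene without replicate 3.

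**Figure D4:**
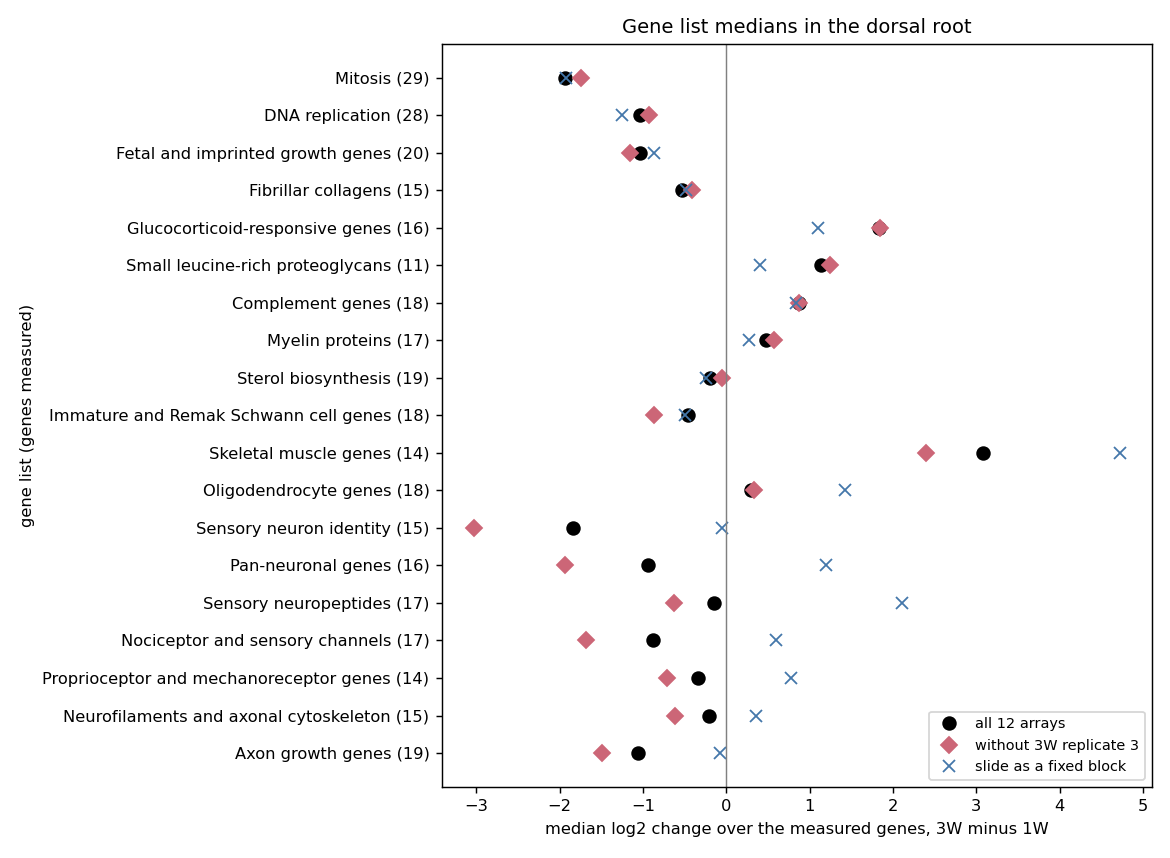
Median log2 change, 3W minus 1W (x axis), of 19 gene lists (y axis) with all arrays, without 3W replicate 3 and with slide as a block. The mitosis list (-1.94, -1.75 and -1.92) and the glucocorticoid-responsive list (1.84, 1.84 and 1.10) keep their direction, and the neuronal lists spread on both sides of 0.

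Axon growth genes fell in 4 of 19 and rose in 1 with all arrays, and 11 fell without replicate 3. Dcx, the microtubule protein doublecortin of young neurons, was low on all 3W arrays (7.48, 7.46 and 8.28 to 4.56, 4.76 and 5.45; 7.06-fold, adjusted p = 0.00797), and Tubb2b (-1.31), Marcks and Marcksl1 fell, while Stmn1 rose 2.0-fold. Of 19 genes of the node, paranode and juxtaparanode, Kcna1, the potassium channel clustered beside the paranode, rose (14.93, 15.00 and 14.51 to 16.20, 16.39 and 16.10; 2.67-fold, adjusted p = 0.00501), and 4 fell without replicate 3. Of 31 potassium channels 2 rose, Kcna1 among them, and Kcnj10 (-1.38) and Kcnq5 (-1.66) fell, with a median of -0.31. These 4 of 31 lie close to the share of all genes that changed, 12.3%. Without replicate 3, 3 rose and 8 fell (median -0.62), and Kcnq5 no longer passed. Kcnq5 read 11.44, 12.66 and 10.03 at 5W and had 0.55 with slide as a block.

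Transmitter receptor lists held 1 or 2 changes each (share of all genes that changed, 12.3%). Of 14 GABAA receptor subunits Gabra3 rose 2.43-fold, and 1 rose and 1 fell without replicate 3. Of 16 ionotropic glutamate receptor subunits Grik3 rose 2.06-fold, and Grin2d fell 3.69-fold but read 13.43, 13.43 and 11.22 at 5W, low on the 3W slide alone. Without replicate 3, none rose and Grik4 (-2.10) fell beside Grin2d. Of 15 neurexins and their partners the synaptic adhesion gene Lrrtm1 fell 3.3-fold (11.59, 11.57 and 11.33 to 9.83, 9.74 and 9.76; adjusted p = 0.00252). Without replicate 3, Nrxn2 (-1.38) and Nlgn3 (-1.01) fell as well.

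Energy metabolism lists held few changes, with Pdk4 and Slc2a1 the changed genes among 24 for glycolysis and lactate transport (2 rises, with 1 fall added without replicate 3), and Cox7a1 (1.26), the muscle-type subunit, the changed gene among 40 nuclear genes of oxidative phosphorylation (median -0.01). Of 22 glutathione and xenobiotic enzymes 5 rose and 1 fell, with Fmo2, a flavin monooxygenase, rising 9.55-fold (8.62, 8.14 and 7.90 at 3W, above background on 2 of the 1W arrays), Gstm1 rising 2.75-fold and Gsta2 falling 6.75-fold. Outside the lists, the sulfotransferase Sult1a1, named after its values were seen, rose 14.0-fold (11.92, 12.21 and 11.53 to 15.77, 15.89 and 15.43; adjusted p = 1.62e-05). Of 22 DNA methylation and Polycomb genes, Cbx7 (8.57, 8.43 and 7.94 to 11.02, 11.17 and 10.79; 6.4-fold, adjusted p = 0.000309), Ezh1 (2.72-fold), the methyltransferase of non-dividing cells, and Cbx2 rose, and Uhrf1 fell.

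The ventral root, on the same slides, gave similar changes over the same interval. In EN 3980 probes (11.5%) and 2687 genes (11.8%) changed between 1W and 3W. Of the AN probes that rose, 61.5% also rose in EN (63.7% of the EN rises), of those that fell, 68.2% also fell (67.3% of the EN falls), and 1 probe was called in opposite directions. All 29 mitosis genes fell in EN (median -2.05; 6.33% of all genes fell) and 15 of 16 glucocorticoid-responsive genes rose (median 1.80; 5.43% of all genes rose). Both roots share the placement of ages on slides, so this is no second test of the slide.

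The difference between the roots in the change from 1W to 3W was tested as an interaction over all 24 arrays. It passed both criteria at 11 probes (0.0318%), with the change more upwards in AN at 4 (0.0116%) and more downwards at 7 (0.0202%), and at 73 probes when same-numbered AN and EN arrays were blocked. By brightest probe, 4 genes passed (0.0175%). Crh, encoding corticotropin-releasing hormone, was not above background at 1W and read 5.45, 5.39 and 5.51 at 3W in AN, at least 1.96-fold higher, and was not above background on any EN array of either age (interaction 2.58, adjusted p = 0.0166). In AN it also read 5.71, 6.48 and 5.33 at 5W. Slc26a7, an anion exchanger, read 4.08, 4.07 and 4.09 at 1W and 5.52, 5.47 and 6.48 at 3W in AN, above background on 1 and 3 arrays. At 5W in AN it read 3.37, 4.82 and 3.47. Its AN change no longer passed without 3W replicate 3 (1.41, adjusted p = 0.0515 in limma). No EN array of either age was above background for it, so the EN side of its interaction (3.37, adjusted p = 0.0382) is a difference between values below background.

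Dab1, the reelin adaptor, fell in both roots, with a log2 change of -2.25 in AN (9.18, 9.07 and 9.37 to 6.99, 6.95 and 6.92) and of -3.82 in EN, where no 3W array was above background (interaction 1.57, adjusted p = 0.0249). C1ql3, a secreted complement-related synaptic protein, had -0.53 in AN and 0.72 in EN, both under 2-fold (interaction -1.25, adjusted p = 0.0166). Without 3W AN replicate 3, 231 probes (0.668%) differed, 37 with a higher change in AN (0.107%) and 194 with a lower change (0.561%), among them neuronal genes such as Prph, Pou4f3 and Nrg1. For the sensory neuron identity list, EN had no call and a median of -0.01.

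**Figure D5:**
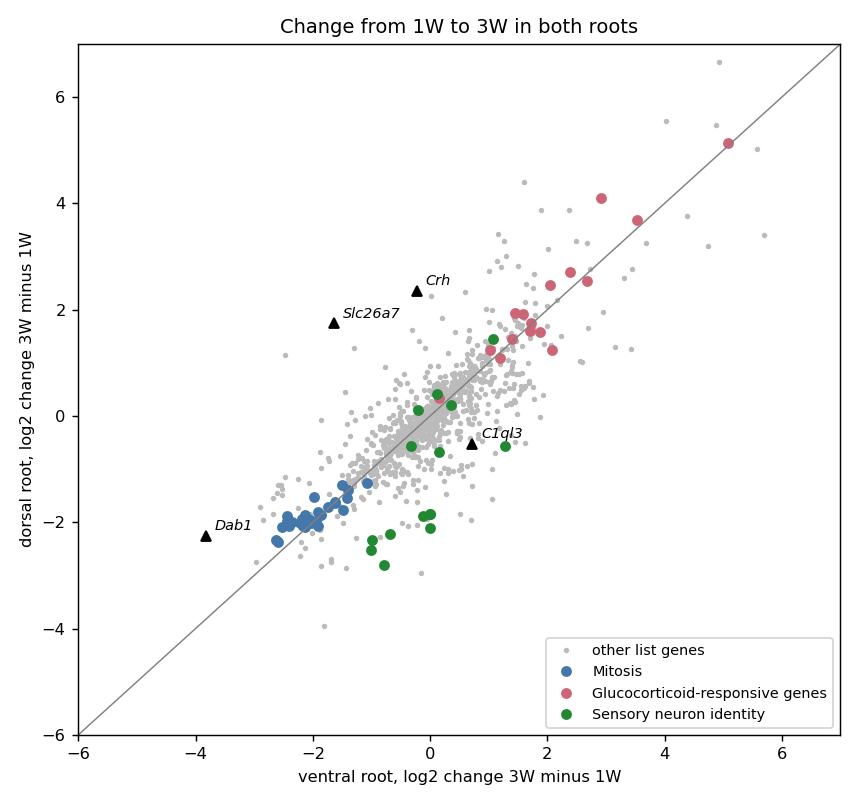
Log2 change, 3W minus 1W, of the measured members of the gene lists in the dorsal root (y axis) against the ventral root (x axis). Other genes are not drawn, apart from triangles for Crh, Dab1, Slc26a7 and C1ql3. Mitosis, glucocorticoid-responsive and sensory neuron identity genes are coloured, and the line is that of equality. Mitosis and glucocorticoid-responsive genes lie along the line, and most sensory neuron genes lie below it.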

How the data were processed

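The authors dissected efferent and afferent fibres, labelled the RNA with Cy3 and hybridised it to 1-colour Agilent mouse arrays, 24 in all. Intensities were extracted with Agilent Feature Extraction 10.7.1.1, per the labels, and the authors quantile-normalised them. The deposited value table holds the resulting log2 values, which were used here, and the deposited scanner intensities gave gene names, background flags and alternatives. Probe coordinates are mm9, as the array files state, and promoter windows are RefSeq on GRCm38.p6. Of 56605 gene probes, 34606 were well above background on all 3 AN arrays of 1W or of 3W and were tested. No spot was saturated on any array.

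limma 3.58.1 (R 4.3.3) was fitted to 12 AN arrays with 4 age means. A probe was called at a Benjamini-Hochberg adjusted p below 0.05 and a fold above 2. The interaction used 24 arrays and 8 group means. Each gene was represented by its brightest tested probe. Named genes were the 10 largest rises and falls, up to 4 of the brightest and 4 of the most changed members of each of 55 lists (1021 of 1089 genes measured), the interaction genes, and list members with a known role. The members and lists were chosen with earlier results of these data known, so lists are described by counts and medians and not tested. For a gene above background on no array of 1 age, "at least" gives the bound set by the dimmest probes above background. Only 3 arrays per group limit the precision. Python 3.11.15 with scipy 1.17.1 gave the exact permutation tests. The scripts were tested on simulated data.

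Replicate numbers did not pair the ages: the deviations of same-numbered AN arrays from their group means correlated at 0.209, 0.006 and 0.189. Same-numbered AN and EN arrays of an age, which shared a slide, correlated at 0.402, 0.529 and 0.666 at 1W and 0.188, 0.134 and 0.232 at 3W, so the interaction was also fitted with that block. Alternatives were other scalings of the scanner signals, other background filters, array weights, slide as a block, leaving out each array and other thresholds. A few list members are counted in their lists and are not reported here by name.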

Additional observations from a re-analysis of the deposited data

Results flagged for a closer look

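The change from 1W to 3W differed between the dorsal and the ventral root at 11 probes, by the limma interaction with an adjusted p below 0.05 and a difference above 2-fold. The change was more upwards in the dorsal root for Slc26a7 (3.37), Crh (2.58), Dab1 (1.57) and a probe of Ncam1, a neural cell adhesion molecule (1.13). It was more downwards in the dorsal root for Sybu (syntabulin, an adaptor for axonal transport) (-4.04), for the palmitoyltransferase Zdhhc2 at both of its called probes (-3.52 and -3.11), for Cyp2j13 (-3.09), for the adenylate cyclase Adcy8 (-2.58) and for C1ql3 at both of its called probes (-1.5 and -1.25). No EN array of either age was above background for Slc26a7 or Crh, no EN array at 1W for Cyp2j13 or Adcy8 and none at 3W for Dab1, so the sizes given for these 5 rest in part on values below background. Some of these probes are not the brightest of their gene, which is why fewer genes than probes are named in the comparison of the roots.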

How the results depend on the processing

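Of 4020 called probes, leaving out each array in turn gave 3100 to 5087, the highest without 3W replicate 3. Other scalings, filters, sets of arrays and the replicate block (3999 calls) stayed within 1.5 times the count, but array quality weights gave 6102, normexp background correction 2197, slide as a fixed block 629, and no limit on the fold 8016. The cause of these shifts was not tested, apart from the last, which drops a criterion. Slide as a fixed block rests on the 5W arrays as its link, and it turned the direction of 5 of the 158 called genes among the 328 named: Aqp4 to 0.03, Btg2 to -0.1, Grin2d to 0.38, Kcnq5 to 0.55 and Olfr1097 to -0.18. Under it 42 stayed called in the same direction and 111 no longer passed. Without 3W replicate 3, 139 stayed called, 19 no longer passed and 16 others passed.

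The count of 11 interaction probes moved more. It was 0 (without EN 3W replicate 3) to 231 (without AN 3W replicate 3) on leaving out each array, and 73 with the replicate block that pairs AN and EN, which changed no other statement. It was 5 with the 2 ages only, 6 with probes above background on all 12 arrays, 800 with array quality weights, 7 with normexp, 24 with slide as a fixed block, 24 with slide as a random block, 465 by unadjusted p and 3 with 1 probe per gene. The single genes named from it rest on these settings. The neuronal marker difference of -1.38 was -0.18 for the summed linear signal (exact permutation test, p = 0.7). Genes near background, below about 3.71 to 5.09 on the log2 scale, have only bounds.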
